A study of Mus musculus with 11 samples.

Results

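The nuclear factor I (NFI) genes Nfia, Nfib, Nfic and Nfix were examined for open chromatin in fetal mouse lung epithelium with and without Prdm16 and Prdm3. Their regions were those whose nearest protein-coding gene body, at most 100 kb away, was one of the 4 genes. There were 110 such regions of 83262 in all, with 60 at Nfia, 33 at Nfib, 5 at Nfic and 12 at Nfix. Before regions with a peak in fewer than 3 of the 11 libraries were left out, the genes had 144 of 101557 windows (75, 44, 7 and 18). All 11 were ATAC-seq libraries, where Tn5 transposase inserts adapters into open chromatin, each from 50000 lung cells selected for EpCAM, an epithelial surface protein, in E17.5 fetuses. The 6 control libraries carry the genotype label Control with no further detail. The 5 knockout libraries are labelled Prdm3/16KO, for floxed alleles of both genes removed by Cre from the Shh gene (ShhCre), which acts in lung epithelium. The breeding notes name Prdm3 fl/fl Prdm16 fl/wt ShhCre+ males and Prdm3 fl/fl Prdm16 fl/fl females. Floxed alleles may thus be present in controls, and whether controls carry Cre is not given in the sources used here. Nothing in the labels says that each library came from a separate fetus, so p-values measure the spread between libraries only. Each library has its own peak list without read counts, so depth is unknown and limits what follows.

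NFI proteins are transcription factors that bind DNA as dimers at a palindrome of TTGGC and GCCAA, and more weakly at a single such motif. They can activate or repress, and are known to work with forkhead factors at shared sites. In the lung, Nfib is needed before birth for the distal epithelium to mature, and mice without it die at birth with immature lungs. Nfia is best known for the formation of glia, Nfix for neural stem cells and muscle, and Nfic for tooth roots.

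The EpCAM selection was checked by peaks within 1 kb of the ends of marker genes. Of 7 epithelial markers, 5 had one in all 11 libraries (Epcam, Cdh1, Nkx2-1, Krt8 and Krt18), Sftpc had one in 4 controls and 4 knockouts, and Cldn18 had none. Of 6 endothelial markers, each control had 2 and each knockout 1, because Tek had a peak in 6 controls and 0 knockouts, while Pecam1, Cdh5, Tie1 and Emcn had none anywhere. Of 6 leukocyte markers, controls had 1 to 2 and knockouts 1, with Cd68 at 5 controls and 0 knockouts and Ptprc, Csf1r, Tyrobp and Laptm5 at none. Kdr and Spi1 had a peak in all 11 libraries. Of 6 mesenchymal markers each library had 2 or 3: Col1a2 had a peak in all 11 libraries, Col1a1 in 5 controls and 5 knockouts, Pdgfrb in 6 controls and 3 knockouts, and Pdgfra, Tbx4 and Tcf21 in none. The part of these cells in the differences given here was not tested. In a pool of cells, fewer cells with an open region and less opening per cell cannot be told apart.

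Sequence was used from RefSeq promoter entries in build GRCm38.p6, the build of mm10. Entries were matched for Nfia (1), Nfic (1) and Nfix (4), and for none of Nfib. All 6 start inside the gene body and not at its start-side end. The 250 bases before a start are shown for 3 promoter entries. That of Nfic had a peak in some controls only. One of Nfix holds a single TTGGC motif without a peak. One of Foxa2, a forkhead partner, has such a motif and overlaps a region that fell. Each is on the minus strand, written 5′ to 3′, and capitals mark TTGGC or its reverse complement GCCAA.
Nfic, chr10:81427174-81427423: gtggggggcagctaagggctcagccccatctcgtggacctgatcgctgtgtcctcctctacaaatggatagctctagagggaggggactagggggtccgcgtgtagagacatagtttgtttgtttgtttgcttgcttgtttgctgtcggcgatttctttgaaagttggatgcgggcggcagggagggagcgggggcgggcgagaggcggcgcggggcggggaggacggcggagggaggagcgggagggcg
Nfix, chr8:84775829-84776078: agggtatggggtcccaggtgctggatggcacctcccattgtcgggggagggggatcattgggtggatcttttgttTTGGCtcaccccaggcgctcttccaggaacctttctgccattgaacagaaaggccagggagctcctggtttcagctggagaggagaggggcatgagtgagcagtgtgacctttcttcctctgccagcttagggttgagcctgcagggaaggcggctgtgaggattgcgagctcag
Foxa2, chr2:148046970-148047219: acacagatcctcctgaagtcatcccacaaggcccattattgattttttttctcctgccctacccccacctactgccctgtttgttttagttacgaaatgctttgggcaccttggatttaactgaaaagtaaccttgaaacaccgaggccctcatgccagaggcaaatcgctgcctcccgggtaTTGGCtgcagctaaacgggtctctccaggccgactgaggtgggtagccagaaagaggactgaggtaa
The full palindrome, TTGGC followed after any 5 bases by GCCAA, was searched on both strands from 250 bases before to 50 after the start. It was in 0 of the 6 promoters of NFI genes and in 12 of 32851 promoters (0.0365%). TTGGC in either orientation, which the palindrome contains, was in 3 of the 6, against 46.7% of all promoters. The longer TTGGCA was in 0 of the 6 against 14.1%, and CACTTG, the core of Nkx2-1 sites, in 0 of the 6 against 13.6%. The Nfic entry starts at 81427173, inside a body that reaches 81431919. It was overlapped by a peak in 2 of 6 controls and 0 of 5 knockouts in the deposited lists. Those peaks were in control replicate 1 (81427003 to 81427222) and replicate 4 (81426973 to 81427260), and only the latter was strong enough for the shortened lists used below. No peak of any library overlapped the Nfia entry (start 97581943, body from 97578066) or the Nfix entries (starts 84772875 to 84780082, body to 84801238). These entries do not describe the start-side ends of the bodies. There, Nfic had a region 1148 bp outside, at 81432867 to 81433266, and Nfix one at 84800121 to 84800520. Each had a peak in all 6 controls and 5 knockouts. Nfia had 0 regions within 1 kb of a gene end. Transcript starts inside its body other than the Nfia entry were not examined, so this does not show that Nfia lacks an open start.

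Accessibility was expressed as a rank score within the 72935 strongest peaks of each library. The score is 1 for the strongest peak, falls evenly towards 0, and is 0 where a library has no peak among these. A score thus ranks a region against the rest of its own library and is not a read density. Positions are in mm10. Differences are knockout minus control, tested with limma over all 83262 regions and called at a Benjamini-Hochberg adjusted p below 0.05.

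Of the 110 NFI regions, 26 were lower and 21 higher in the knockout and 63 were not called. Over all regions 37.8% were called, 20.8% lower and 17.0% higher, and the NFI shares were 23.6% and 19.1%, close to that background. All 26 lower regions were at Nfia, with 17 lower and 11 higher of 60, and Nfib, with 9 and 7 of 33. Together Nfia and Nfib also held most of the regions and most of the higher ones. Nfic had 0 lower and 1 higher of 5, and Nfix 0 lower and 2 higher of 12. At an unadjusted limma p below 0.05, both of these genes still had 0 lower regions, but with the lists as deposited or a −log10 q of at least 5 Nfic had 1 lower region. The median difference was -0.0436 over the NFI regions and -0.0208 over all regions. For regions inside gene bodies these medians were -0.0490 and -0.0374. Called differences of 0.3 or more numbered 12 in each direction, against 9.15% lower and 8.98% higher of all regions. The balance of directions depended on the scale, over all regions too. Ranking by fold enrichment gave 13 lower and 18 higher of 112, where all regions gave 16.3% and 15.5%. Requiring a −log10 q of at least 5 gave 32 and 16 of 123, where all regions gave 25.3% and 12.5%.

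**Figure D1:**
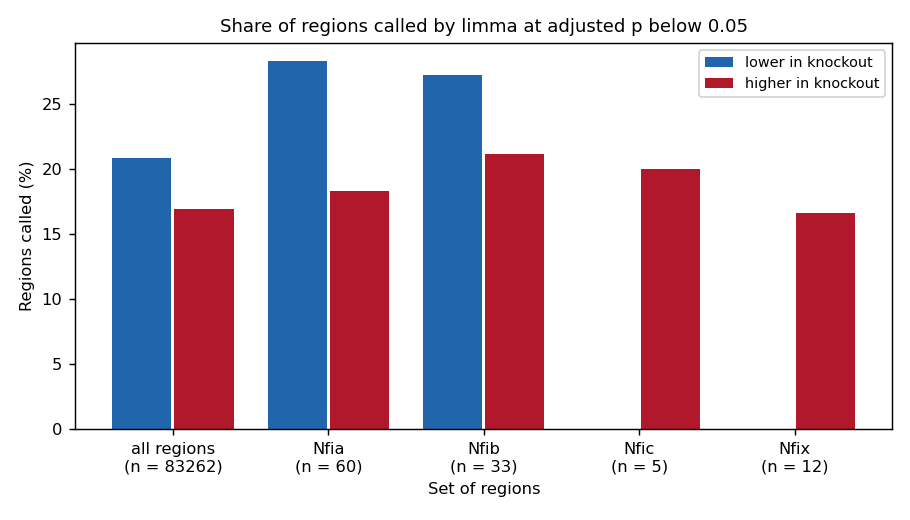
Bars show the percent of regions called lower (blue) and higher (red) in the knockout by limma, for all regions and for each NFI gene, with the number of regions under each name. Nfia and Nfib had 28.3% and 27.3% lower regions against 20.8% of all. Inside gene bodies, where most of their regions lay, 24.9% of all regions were lower. Nfic and Nfix had none lower, although Nfic had 1 with the lists as deposited or a −log10 q of at least 5.

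Backgrounds differ by position. Regions inside gene bodies are called more often genome-wide, 24.9% lower and 19.1% higher, and 90 of the 110 NFI regions lay there, with 22 lower (24.4%) and 15 higher (16.7%). None of the 4 NFI regions within 1 kb of a gene end was called, where the background is 9.63% and 6.61%. Between genes 4 were lower and 6 higher of 16, against 23.0% and 19.5%. NFI gene bodies held many regions for their length. Nfia had 9.98 per 100 kb of its 540.8 kb body, Nfib 10.6, Nfic 11.2 and Nfix 12.4, against 4.54 over the summed length of all protein-coding gene bodies. Of the 110 regions, 43 had a peak in all 11 libraries (39.1%, against 43.8% of all regions), and 10 of these were lower and 6 higher. Genome-wide 17.9% and 12.7% of such regions were called. The 2 groups of libraries did not overlap in score at 30 of the 110 regions (22.9% over all regions).

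**Figure D2:**
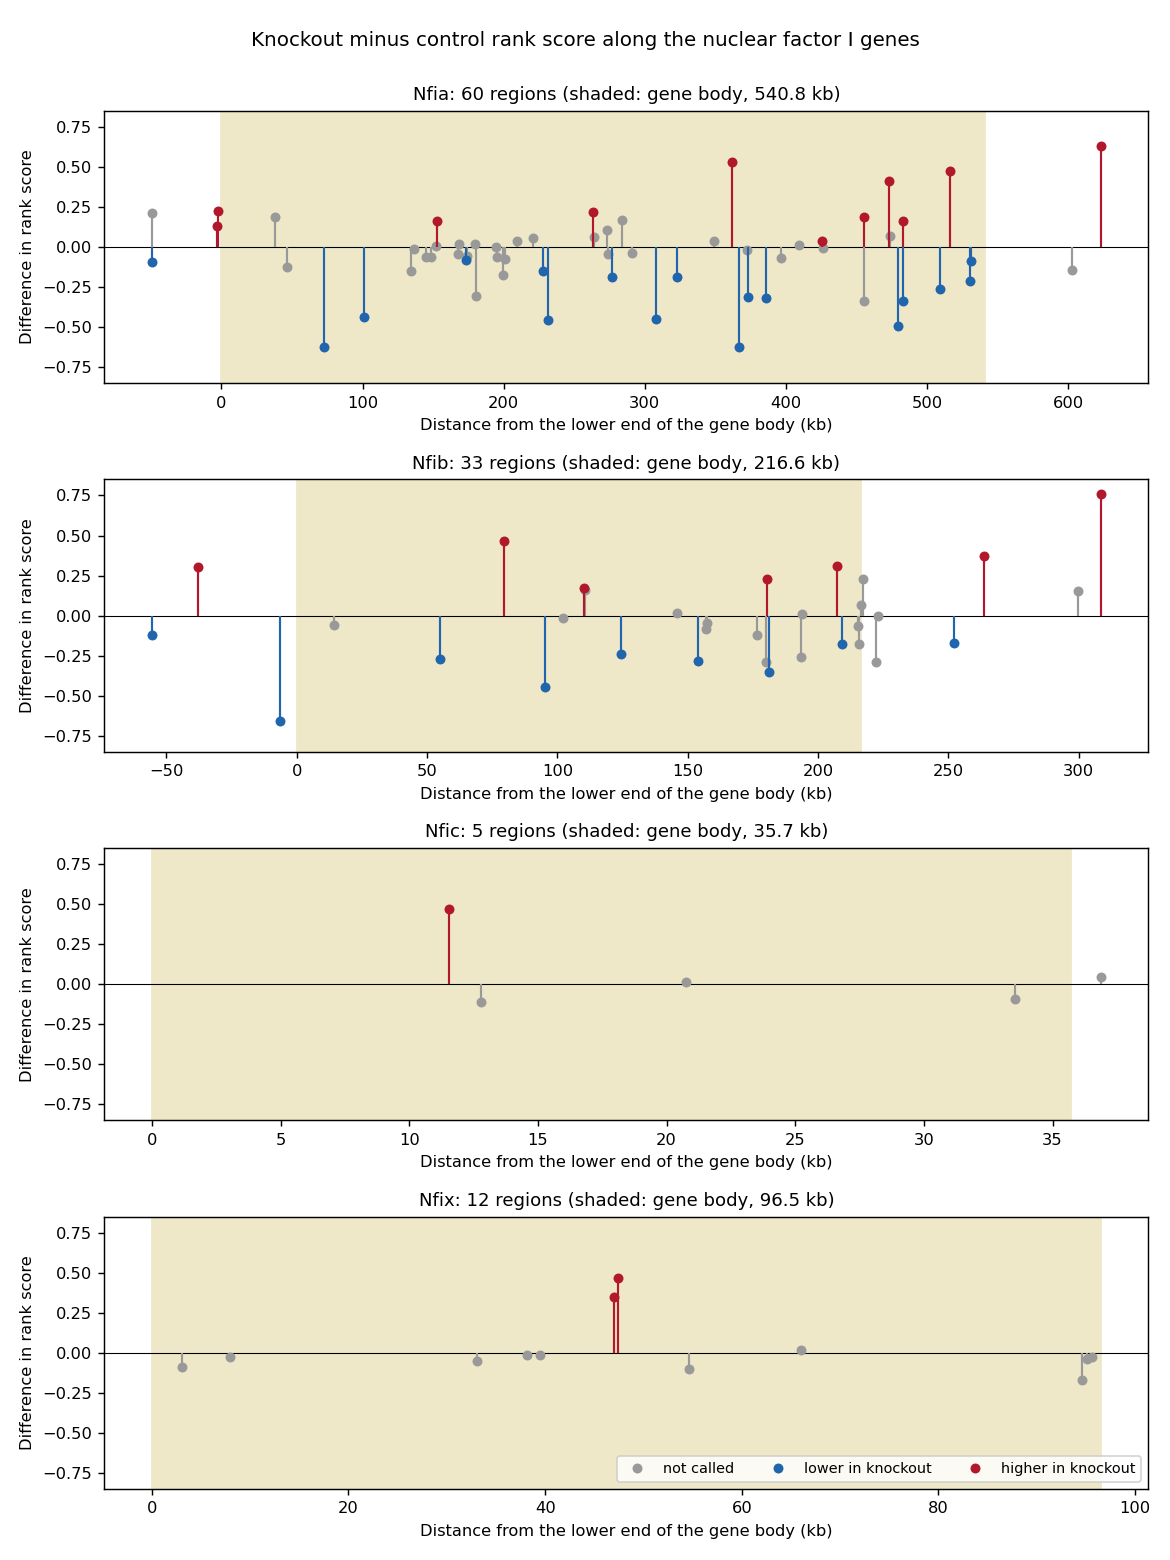
Each stem is a region, placed by its distance in kb from the lower-coordinate end of the gene body (shaded), with the knockout minus control difference in rank score on the vertical axis. Lower (blue) and higher (red) regions are interspersed along Nfia and Nfib, and the highest stems of both stand outside the body, at 0.759 for Nfib and 0.632 for Nfia.

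Nfib, on chromosome 4 from 82290173 to 82506751 (gene 18028), stands alone in its neighbourhood: the next gene body from its regions, that of Zdhhc21, is at least 200089 bp away. The greatest difference of all NFI regions was a gain 91898 bp outside the body, at 82598449 to 82598848. Control scores there were 0 at the lowest and the median and 0.0311 at the highest, and the knockouts scored 0.668, 0.740, 0.749, 0.821 and 0.841. All 5 knockouts were thus far above every control, of which only replicate 4 had a peak. The difference was 0.759 ± 0.0491 (SE, limma adjusted p = 7.23e-08). On the same side, 47121 bp out, the region at 82553672 to 82554071 had no peak in any control and scored 0.422, 0.339, 0.246, 0.492 and 0.356 in knockouts (limma adjusted p = 8.72e-05).

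The greatest loss at any NFI gene was also at Nfib, 6502 bp outside its lower end at 82283471 to 82283870. Controls ranged from 0.614 through a median of 0.802 to 0.852, and knockouts scored 0, 0, 0, 0.252 and 0.336, with no overlap. The difference was -0.657 ± 0.0737 (SE, limma adjusted p = 9.42e-06). Inside the gene, scores at 82385361 to 82385760 averaged 0.576 ± 0.092 in the 6 controls and 0.133 ± 0.183 in the 5 knockouts (SD), of which 2 kept a peak, a fall with limma adjusted p = 6.79e-04 that was not called with lists of 50% of the length (-0.154, limma adjusted p = 0.0954). Another fall, with limma adjusted p = 2.84e-04, was at 82471219 to 82471618, where the means were 0.366 ± 0.0946 and 0.0157 ± 0.0351. With ranking by fold enrichment its difference was -0.0843 and not called (limma adjusted p = 0.0974). A weaker loss was complete: at 82344781 to 82345180 all 6 controls had a peak, from 0.0937 to 0.406, and no knockout had one (limma adjusted p = 0.0034). The fall at 82444081 to 82444480 (-0.281, limma adjusted p = 0.00952) was absent with ranking by fold enrichment, where the difference was 0.00122.

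Gains inside Nfib included a pair with no peak in controls. The region at 82369375 to 82369774 scored 0.426, 0.337, 0.481, 0.654 and 0.420 in knockouts (limma adjusted p = 3.05e-05). A weaker gain was at 82400044 to 82400443, which scored 0.173 ± 0.0179 (SD, n = 5, limma adjusted p = 0.00105). Neither had a peak in any control in the full deposited lists either. A further gain was at 82497239 to 82497638, with control and knockout means of 0.169 ± 0.141 and 0.481 ± 0.0791 (limma adjusted p = 0.00414). Below the body by 37981 bp, at 82251992 to 82252391, the means were 0.231 ± 0.207 and 0.532 ± 0.12 (limma adjusted p = 0.0245). Neither passed when the full deposited lists were ranked (limma adjusted p = 0.0875 and 0.0808) or at a −log10 q of at least 5 (0.0659 and 0.0601), and the first was 0.0433 with lists of 50% of the length (limma adjusted p = 0.255). The second was also lost without control replicate 4 or without knockout replicate 1, 2 or 5, at limma adjusted p up to 0.0578.

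No region at the upper end of the Nfib body was called. Of 3 within 1 kb of it, the one at 82506342 to 82506741 ranged from 0.337 through 0.581 to 0.682 in controls and scored 0.732, 0.580, 0.646, 0.549 and 0.544 in knockouts. A peak that covered it also covered the region at 82506997 in several libraries, where their scores are identical. The groups overlapped (difference 0.0677 ± 0.0626, SE, limma adjusted p = 0.419). Its neighbours at 82505603 and 82506997 were not called, with differences of -0.176 and 0.229 (limma adjusted p = 0.0919 and 0.194), although the first passed at 0.00952 without control replicate 3, which had no peak there, and at 0.0429 with a −log10 q of at least 5. The second turned to -0.143 with the lists as deposited (limma adjusted p = 0.0601). The strongest Nfib region, 6474 bp beyond this end at 82513025 to 82513424, had means of 0.968 ± 0.0149 over 6 controls and 0.967 ± 0.00697 over 5 knockouts (SD, limma adjusted p = 0.956).

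Nfia lies on the same chromosome from 97578066 to 98118876 (gene 18027), with 54 of its 60 regions inside the body. Among its 5 greatest falls were 3 intragenic regions with a peak in all 6 controls and no knockout, in the used and in the full lists. At 97944304 to 97944703 controls ranged from 0.469 through 0.636 to 0.722 and every knockout was at 0 (difference -0.624 ± 0.0554, SE, limma adjusted p = 1.10e-06). At 98057183 to 98057582 they ranged from 0.306 through 0.496 to 0.632 (limma adjusted p = 2.36e-05), and at 97885510 to 97885909 from 0.324 through 0.435 to 0.628 (limma adjusted p = 7.01e-05). With lists of 50% of the length the first of these 2 differed by -0.0816 and was not called (limma adjusted p = 0.184). Nearly as complete was the loss at 97650362 to 97650761, where controls ranged from 0.512 through 0.669 to 0.789 and only knockout replicate 2 had a peak, at 0.154. The difference was -0.623 ± 0.0631 (SE, limma adjusted p = 3.72e-06). At 97809573 to 97809972 the mean score was 0.501 ± 0.255 in controls and 0.0456 ± 0.102 in knockouts, a fall with limma adjusted p = 0.00484, with control replicate 5 and 4 knockouts at 0, so its groups overlapped.

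The greatest gain of Nfia lay outside the body, as at Nfib. At 98201098 to 98201497, 82422 bp beyond the upper end and 154072 bp from the next gene body, Tm2d1, only control replicate 6 had a peak, at 0.0502. Knockouts there scored 0.628, 0.704, 0.589, 0.708 and 0.572 (difference 0.632 ± 0.0495, SE, limma adjusted p = 3.69e-07). Inside the body, 3 regions with partial opening in controls rose. At 98094050 to 98094449 the control mean was 0.284 ± 0.147 and the knockout mean 0.758 ± 0.0653, with no overlap (limma adjusted p = 8.53e-05). The one at 97939641 to 97940040 went from 0.121 ± 0.155, with 3 controls at 0, to 0.654 ± 0.02 (limma adjusted p = 4.98e-05). Means of 0.211 ± 0.122 and 0.622 ± 0.104 were found at 98050818 to 98051217 (limma adjusted p = 3.76e-04).

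Near the lower end of Nfia, 2430 bp outside, the region at 97575436 to 97575835 had a peak in 5 knockouts and only in replicate 6 of the controls (difference 0.227, limma adjusted p = 0.0422). Its call was lost with 8 of the 11 libraries left out singly, with limma adjusted p up to 0.0944, and also with the lists as deposited, with a −log10 q of at least 5 and with ranking by fold enrichment. The strongest region of the gene, inside it at 97772090 to 97772489, scored 0.967 ± 0.00998 in controls and 0.970 ± 0.0166 in knockouts (limma adjusted p = 0.791). Of the 28 Nfia regions with a peak in all 11 libraries, 8 were lower (28.6%) and 5 higher (17.9%), where all such regions gave 17.9% and 12.7%. With overlapping peaks merged, the lower region at 97950712 and the higher one at 97841211 were not called. The lower region at 98060703 then lay in a merged region called higher.

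**Figure D3:**
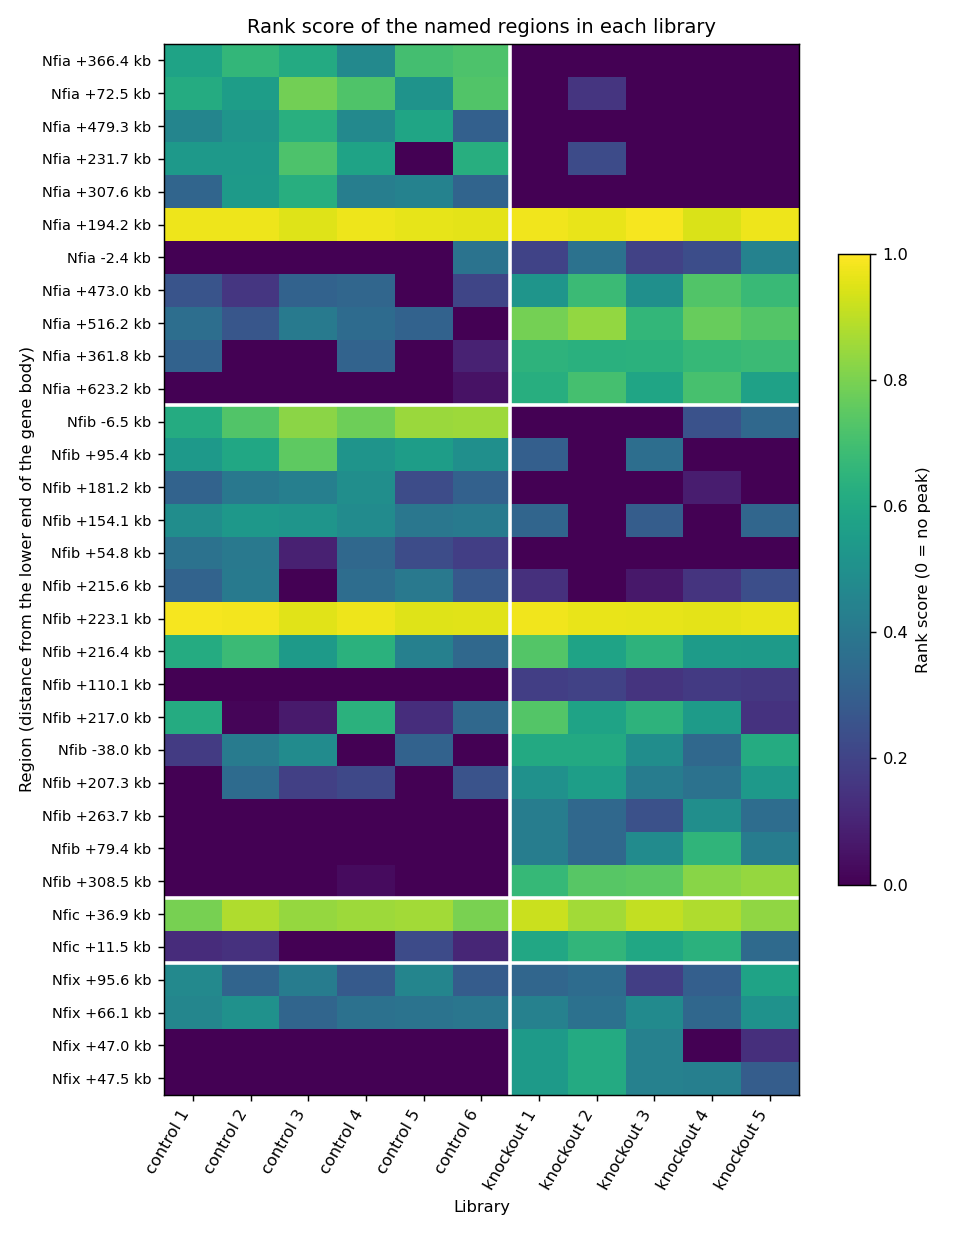
Colour gives the rank score of 32 regions (rows, named by gene and distance in kb from the lower end of the gene body) in the 6 control and 5 knockout libraries (columns), with 0 for no peak. The strongest Nfia and Nfib regions are bright in all 11 libraries, near 0.97, while the last row of Nfia and of Nfib is dark in controls, with 1 faint peak each, and bright in all 5 knockouts.

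Nfix, on chromosome 8 from 84704712 to 84801238 (gene 18032), had its only called regions side by side inside the gene, with starts 406 bp apart. The region at 84751962 to 84752361 had no peak in any control, also in the full lists, and scored 0.546, 0.612, 0.438, 0.432 and 0.296 in knockouts (difference 0.465 ± 0.0599, SE, limma adjusted p = 3.28e-05). Its neighbour at 84751556 to 84751955 scored 0.546, 0.612, 0.438, 0 and 0.133 (limma adjusted p = 0.0132). Identical scores in 3 knockouts show that one peak covered both windows, and with overlapping peaks merged they were 1 region. The call of the neighbour was lost with the lists as deposited (difference 0.0739, limma adjusted p = 0.0682), at a −log10 q of at least 5 (0.0130, 0.739) and with ranking by fold enrichment (0.196, 0.196). At the start-side end of the gene, the region at 84800121 to 84800520 ranged from 0.285 to 0.473 in controls and from 0.184 to 0.580 in knockouts, with overlap (limma adjusted p = 0.821). The strongest Nfix region, at 84770573 to 84770972, scored only 0.407 ± 0.0657 and 0.426 ± 0.0726 (SD, n = 6 and 5, limma adjusted p = 0.803).

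Nfic, on chromosome 10 from 81396191 to 81431919 (gene 18029), sits among close neighbours and gained 1 region. At 81407535 to 81407934, inside the gene, controls ranged from 0 through a median of 0.117 to 0.227 and knockouts scored 0.601, 0.659, 0.597, 0.638 and 0.347, with no overlap (difference 0.468 ± 0.0688, SE, limma adjusted p = 1.06e-04). The strongest region of the gene, at 81432867 to 81433266, lay 1148 bp above its upper end, which is the start side. It had a peak in all 11 libraries. Its scores were 0.838 ± 0.0349 in controls and 0.880 ± 0.0355 in knockouts. It was not called (limma adjusted p = 0.105), but passed with scores centred per library (0.0625, limma adjusted p = 0.0373).

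Presence of a peak was also compared without ranks. Of 31 NFI regions that Fisher's exact test could call, 10 had a peak in more controls and 9 in more knockouts after Benjamini-Hochberg adjustment, against 23.9% and 23.3% of 24732 testable regions. By gene these were 6 and 3 of 15 testable regions at Nfia, 4 and 4 of 10 at Nfib and 0 and 2 of 6 at Nfix. No Nfic region could be called by this test, so it says nothing about that gene. A peak in all 6 controls and no knockout was found at 4 NFI regions (2.94% of all regions), and the reverse at 4 (3.89%). Of the first 4, 3 were at Nfia and 1 at Nfib, and of the second, 3 were at Nfib and 1 at Nfix.

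Gene by gene, the mean rank score over regions was highest for Nfia, followed by Nfib, Nfic and Nfix in both genotypes. The libraries of Nfia and Nfib overlapped in controls, and those of Nfib and Nfic in knockouts. Nfia scored from 0.427 through 0.457 to 0.487 in controls, and 0.393, 0.401, 0.422, 0.404 and 0.413 in knockouts. Every control was above every knockout, but the difference of -0.0486 ± 0.0179 (SE) did not pass limma over 16257 genes (adjusted p = 0.0611). It passed over the regions inside the body alone, at -0.0718 (limma adjusted p = 0.0132), and without control replicate 5 (limma adjusted p = 0.0464). With lists of 50% of the length it turned to 0.0117 (limma adjusted p = 0.772). Nfib scored from 0.343 to 0.442 in controls and from 0.337 to 0.381 in knockouts, with overlap (difference -0.0264, limma adjusted p = 0.398). This turned to 0.0404 with ranking by fold enrichment (limma adjusted p = 0.137) and was -0.00642 without control replicate 4.

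Nfic was the only member whose mean was called, higher by 0.0639 ± 0.0202 (SE, limma adjusted p = 0.0328), where 18.2% of genes were lower and 11% higher. Controls ranged from 0.272 through 0.291 to 0.313 and knockouts scored 0.364, 0.355, 0.301, 0.374 and 0.374, so that knockout replicate 3 overlapped the controls. This mean is over 5 regions, of which only the one at 81407535 was called (0.468). The others differed by -0.111, 0.0103, -0.0905 and 0.0428. The difference in the mean turned to -0.0441 with the lists as deposited (limma adjusted p = 0.458) and to -0.0179 at a −log10 q of at least 5 (limma adjusted p = 0.763). Leaving out control replicate 4 or 6, or knockout replicate 1, 2, 4 or 5, also ended the call, at limma adjusted p up to 0.0817. Nfix scored 0.201 ± 0.0314 and 0.225 ± 0.0434 (SD, n = 6 and 5, limma adjusted p = 0.562), a difference of 0.0241 that turned to -0.0456 with the lists as deposited (limma adjusted p = 0.492).

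Peak intervals assigned to each gene were counted without any region set. Nfia had 47, 46, 37, 37, 36 and 47 intervals in controls and 37, 37, 35, 36 and 34 in knockouts, a difference of -5.87 (two-sided exact permutation p = 0.0887, 1 of 4 such tests, not adjusted). With the lists as deposited, which are longer in most controls than in any knockout, it was -7.33 (exact permutation p = 0.0368). Nfib had 21.3 ± 2.07 and 20.8 ± 2.17 (SD, n = 6 and 5, exact permutation p = 0.771), Nfix 7.33 ± 2.07 and 6.40 ± 1.52 (exact permutation p = 0.431), and Nfic 4.17 ± 0.753 and 3.40 ± 0.894 (exact permutation p = 0.188). The smallest p this design allows is 0.0043.

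**Figure D4:**
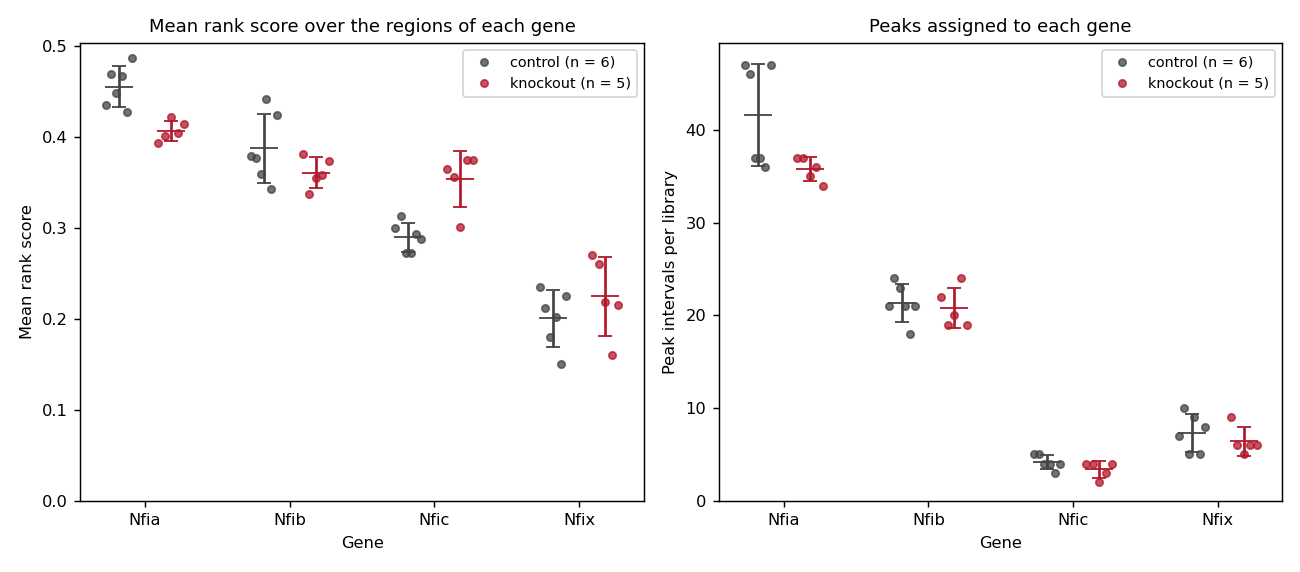
Points are libraries, and bars give the mean and SD, of the mean rank score (left) and of the number of peak intervals (right) for each NFI gene in 6 controls and 5 knockouts. Nfia points of the knockouts lie below all controls on the left, and 4 of 5 Nfic points of the knockouts lie above all controls.

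Across the 11 libraries, the profile of Nfia was most like those of Pon3 and Nr5a2 (Pearson r = 0.952 and 0.941) among 5143 genes with at least 5 regions. Nfib was most like Hdac7 and Aftph (0.954 and 0.918), Nfic like Sh3bp5 and Cttnbp2nl (0.950 and 0.923), and Nfix like Kdm6a and Npl (0.881 and 0.853). Between members, r was 0.664 for Nfia and Nfib and -0.764 for Nfia and Nfic. These values describe 11 points that share their genotype split and list rank scale, and the highest of many genes were picked.

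Partners and targets of NFI proteins were read from a list of 20 genes, all with regions. Of their 159 regions, 31 were lower (19.5%) and 29 higher (18.2%), close to the 20.8% and 17.0% of all regions, with a median difference of -0.0120. Most calls were at Foxa2, the forkhead factor of endoderm, with 11 lower and 5 higher of 30, followed by Hes1, a Notch target and repressor that Nfia is known to silence in neural progenitors, with 4 and 6 of 25. Hopx, a marker of alveolar type 1 cells, and Vegfa, the endothelial growth factor, had 6 calls each, with 3 lower and 3 higher of 13 and 1 lower and 5 higher of 18. A Foxa2 region at 148069073 to 148069472 on chromosome 2 had a peak in all 6 controls (0.363 ± 0.0418) and no knockout, and one at 148012856 to 148013255 had none in any control and a mean of 0.418 ± 0.0776 over the 5 knockouts (SD, limma adjusted p = 3.48e-05 and 2.07e-05). At Hopx, the region at 77155604 to 77156003 on chromosome 5 scored 0.562 ± 0.0639 in controls and had no peak in knockouts (limma adjusted p = 1.12e-06). At Hes1, the region at 30133842 to 30134241 on chromosome 16 had no peak in controls and scored 0.511 ± 0.0859 in knockouts (limma adjusted p = 4.49e-06). Presence of a peak at these partner regions was taken from the shortened lists only. The Foxa2 promoter printed above overlapped a region that fell by 0.251 (limma adjusted p = 0.00337), and its TTGGC motif is a match of letters only. Another Foxa2 promoter with TTGGC, at 148045465 to 148045714, overlapped a region that was not called (0.258, limma adjusted p = 0.131). Promoters of Ezh2 and Nkx2-1 and one of Hopx also held TTGGC and overlapped regions that were not called. Without TTGGC in their 250 bases, the promoters of Sftpb and Cebpa overlapped regions that fell (-0.245 and -0.0629). Those of Aqp5 and another Hopx entry, also without it, overlapped regions that rose (0.248 and 0.0520). A further Foxa2 promoter without TTGGC, at 148045949 to 148046198, overlapped a region called lower and a region not called. Promoters of Sftpa1 and Tgfb1 and one of Vegfa lacked TTGGC and overlapped regions that were not called. Gene means were lower for Ezh2 and Sftpa1 and higher for Sox9, Gfap, Apcdd1 and Vegfa (limma adjusted p from 0.00384 to 0.0381), and the other 14 were not called. These 2 lower and 4 higher of 20 genes stand beside 18.2% lower and 11% higher of all genes.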

How the data were processed

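The 11 deposited peak lists (1 per library, 6 control and 5 knockout) were used; build mm10, MACS2, DiffBind 3 and deepTools are named without roles in the submitters' processing notes. Each peak's fold enrichment (a ratio of summit over background), −log10 p and −log10 q were made by the authors within each library and read by the standard column layout. The deposited score of each peak, as set by the authors' caller, was not used. Because such values depend on unknown depth, each list was shortened to the 72935 peaks ranked first by −log10 p, as many as the smallest list held (range 72935 to 112297). Windows of 400 bp were centred on summits, the better-ranked kept where they overlapped, and a peak had to cover at least 100 bp. Adjacent windows can share a peak. Genes were 21887 RefSeq protein-coding bodies. Nearness was measured from the window centre. Fits used limma 3.58.1 (trend, robust, genotype only) in R 4.3.3, and other steps used Python 3.11.15. The fits were tested on simulated normal noise without a lower limit, with shifts added at regions of intermediate score. That simulation does not cover regions where a whole group has no peak. Named regions were those within 1 kb of a start, up to 5 called falls and 5 rises per gene, complete losses or gains, and the strongest per gene; likeness took 2 genes per member, and the list of partners the 3 with most calls. Vegfa, tied with Hopx for calls, gene means of partners and the close pairs fall outside this rule and were chosen after values were seen. Members and lists were chosen with earlier results of these data known. Alternatives covered list length, q, ranking, overlap, regions kept, merging, centring, replicate block, limma options, distance and leaving out each library.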

Additional observations from a re-analysis of the deposited data

Results flagged for a closer look

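Of 71 groups of 5 or 6 values examined, 12 had 1 library far from the others by Dixon's criterion, where chance gives about 1 in 20. Many of these groups hold zeros for libraries without a peak, so that a single peak stands apart by construction. Among gene values, the Nfic mean of knockout replicate 3 was 0.301, below the other knockouts (0.355 to 0.374), and Nfix had 9 peak intervals in knockout replicate 1 against 5 to 6 in the others.

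Single peaks stood apart in controls at the Nfib gain at 82598449 (0.0311, replicate 4), at the Nfia gain at 98201098 (0.0502, replicate 6) and at the Nfia region at 97575436 (0.381, replicate 6). In knockouts they did so at the Nfib loss at 82471219 (0.0785, replicate 4) and at the Nfia losses at 97650362 (0.154, replicate 2) and 97809573 (0.228, replicate 2).

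A missing peak stood apart at 97809573 in control replicate 5 (0, next 0.538), at 98094050 in control replicate 6 (0, next 0.267) and at 82505603 in control replicate 3 (0, next 0.277). At the Nfic gain at 81407535, knockout replicate 5 scored 0.347 against 0.597 to 0.659 in the others.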

How the results depend on the processing

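Lists of 50% of the length left 49 NFI regions, with 11 lower and 12 higher (all regions 21.4% and 19.6%; Nfia 8 lower, Nfib 3 lower and 3 higher, Nfix 0 higher). Ranking by fold enrichment gave 13 lower and 18 higher (all regions 16.3% and 15.5%; Nfia 8 lower, Nfib 5 lower, Nfix 1 higher). The lists as deposited gave 31 and 17 (24.9% and 12%), a −log10 q of at least 5 gave 32 and 16 (25.3% and 12.5%), and under each Nfic had 1 lower and Nfix 1 higher. Scores centred per library gave 24 and 25 (17.2% and 20.3%), with 2 higher at Nfic. A peak in at least 6 libraries gave 4 higher at Nfib and 0 at Nfix, the gene body alone 4 higher at Nfib, and merged peaks 1 higher at Nfix. With 5 knockouts, the 6-library filter leaves out every region without a control peak. It can keep a region with a peak in all 6 controls and no knockout, so it does not treat the directions alike. The Nfia mean passed limma with at least 6 libraries (-0.0582, adjusted p = 0.0419), without trend and robust options (-0.0486, adjusted p = 0.0360), within 50 kb (-0.0586, adjusted p = 0.0345) and inside the body (-0.0718, adjusted p = 0.0132). It was weaker with centred scores (-0.0288, adjusted p = 0.250) and turned to 0.0117 with lists of 50% of the length (adjusted p = 0.772). The Nfic mean turned to -0.0441 with the lists as deposited (limma adjusted p = 0.458) and -0.0179 at a −log10 q of at least 5 (0.763), and lost its call with at least 2 libraries (0.0545, 0.0583) and inside the body (0.0691, 0.0966). The Nfib mean turned to 0.0404 with ranking by fold enrichment, and the Nfix mean to -0.0456 with the lists as deposited, -0.0409 at a −log10 q of at least 5 and -0.0507 with at least 6 libraries; none was called. Ranking by fold enrichment turned the called Nfib region at 82444081 to 0.00122. Uncalled regions also turned: 82505603 to 0.0677 with merged peaks, 82506997 to -0.143 with the lists as deposited, 82513025 to 0.0315 with ranking by fold enrichment and 0.0190 with centred scores, and, with the lists as deposited and the −log10 q minimum, 97772090 to -0.000618 and -0.000414 and 84770573 to -0.0501 and -0.0509. Nfia intervals differed by -7.33 with the lists as deposited (exact permutation p = 0.0368). Apart from the regions that the 6-library filter leaves out by design, the cause of these changes was not tested. Leaving out each library gave 24 to 29 lower and 18 to 21 higher regions, where all regions gave 19.0% to 21.2% and 15.9% to 17.3%. Nfic then had 1 to 2 higher (2 without knockout replicate 5). Differences in the mean were -0.0582 to -0.0429 for Nfia and 0.0588 to 0.105 for Nfic. Those in Nfia intervals went from -7.00 (exact permutation p = 0.0476, without control replicate 5) to -4.80. Nfib intervals ranged from -1.33 to 0, and 4 uncalled regions crossed 0: 82513025 (-0.00378 to 0.00304), 97772090 (-0.000647 to 0.0102), 84770573 (-0.000898 to 0.0427) and 84800121 (-0.0813 to 0.0176). Of the 47 calls, 39 were kept in all 11 of these fits. With the replicate block there were 22 lower and 20 higher, where all regions gave 18.1% and 14.9%. The Nfic mean of 0.0635 was then not called (limma adjusted p = 0.0976), nor was the Nfia mean of -0.0423 (limma adjusted p = 0.198). The labels do not say whether replicate numbers pair the libraries. Same-numbered deviations correlated from -0.0234 to 0.139, and all control and knockout pairs from -0.084 to 0.139. The highest value was that of replicate 5 in both groups, so these correlations do not settle pairing. For 19 combinations of a named region and a setting no matching region was found. Depth is unknown, so a missing peak does not show closed chromatin, and ranks show no change common to all regions.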

Other observations

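Adjacent windows can share a peak. Of 26 pairs of NFI regions with starts within 1000 bp, 11 had differences of opposite sign and 2 had opposite calls. With overlapping peaks merged there were 86 NFI regions, 24 lower and 20 higher, where all merged regions gave 24.1% and 20.6%. After merging, 44 of the 47 calls had the same direction, 2 were not called and 1 had the opposite direction.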
